A study of Homo sapiens with 6 samples.

Results

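The genes described here are 10 genes listed as restraints on cell growth or division: YPEL2, YPEL3, YPEL5, HBP1, CCNG2, CITED2, SESN1, TOB1, TOB2 and BTG1. They are called growth restraint genes after that list, and whether each slows growth in these cells was not measured. They were chosen by name and known role from the 21619 genes of the count files, with their log2 fold changes at both doses of CXCL12 and IGF1 already known from these same libraries. Their changes between the 3 groups are therefore given as a description, with no p-value. The cells were MDA-MB-231, an established human triple-negative breast cancer line of mesenchymal type, made to express ribosomal protein L10a fused to EGFP. Whether the engineered cells were 1 clone is not given in the sources used here. Tagged ribosomes were pulled down with an antibody to GFP, and the polyadenylated RNA bound to them was sequenced (translating ribosome affinity purification, TRAP). All cells, untreated ones included, were held for 24 h in 0.2% serum; 2 libraries came from untreated cells, 2 from cells given 30 ng/mL of the chemokine CXCL12 with 10 ng/mL of insulin-like growth factor IGF1 for 6 h (lower dose), and 2 from cells given 300 ng/mL CXCL12 with 100 ng/mL IGF1 for 6 h (higher dose). The libraries of a group are lettered a and b and are described as biological replicates. Both factors were always given together, so their separate effects cannot be told apart, and total RNA of these cells was not analysed here.

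FOXO transcription factors (FOXO1, FOXO3, FOXO4) sit in the nucleus and switch on genes of growth arrest and stress resistance when signalling through insulin-type receptors, PI3K and AKT is low, as in starved cells. When that signalling is restored, AKT phosphorylates them and they leave the nucleus. Several of the 10 genes, among them HBP1, CCNG2, CITED2, SESN1 and BTG1, have been described as FOXO targets in other cells. SESN1, YPEL3 and BTG2, a relative of BTG1 outside the 10, have been described as targets of p53. Activity of p53 was not measured here. Among the 10, the products described as slowing growth do so in different ways. Some repress transcription, some speed the shortening of poly(A) tails of mRNAs, and sestrins hold back the kinase complex mTORC1.

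Reads on genes came to 26255079 to 30280322 in a library, so that 3 reads correspond to 0.0991 to 0.114 CPM (a gene's share of the reads on genes, scaled by library size with edgeR's TMM factors). The line's mesenchymal markers VIM, CD44, CAV1, AXL and LGALS1 were abundant, at 655 to 3750 CPM in each library, while the luminal markers ESR1 and PGR had 0 to 5 reads and CDH1 2 to 13 reads. EPCAM and GATA3 were detected at 9.40 to 13.6 CPM. Of the blood and endothelial markers, CDH5 had 0 reads in every library, PTPRC 4 to 14 reads and HBB 0 to 6 reads, and PECAM1 had 1.14 to 1.94 CPM. All 10 growth restraint genes were found in the files and passed the filter on low counts, which kept 13548 genes.

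At the higher dose 7 of the 10 genes fell against untreated cells and 3 rose. YPEL3, HBP1, CCNG2, YPEL2, YPEL5, CITED2 and TOB1 fell, by between 14.5% and 65.0%, and SESN1, TOB2 and BTG1 rose, by between 16.3% and 24.3%. The median log2 fold change of the 10 was −0.50, against 0.00 for all genes tested. A gene was called where its Benjamini-Hochberg adjusted p in edgeR's quasi-likelihood test was under 0.05; by that measure 28.2% of the genes tested fell and 28.1% rose at this dose. At the lower dose 5 of the 10 fell and 1 rose, where 15.9% of the genes tested fell and 16.7% rose. Between the higher and the lower dose 7 of the 10 fell and 1 rose, where 17.6% of the genes tested fell and 16.4% rose. The median log2 fold change of the 10 was −0.15 at the lower dose and −0.35 between the doses, and that of all genes tested was 0.00 in both. Each value is a share of the pulled-down RNA, so fewer cells with an mRNA, less of it per cell and less of it on tagged ribosomes cannot be told apart. TOB1 and SESN1 were not called at the higher dose with DESeq2, or without library b of the untreated cells (log2 fold change −0.15 for TOB1 and 0.27 for SESN1) or library a of the higher dose (−0.21 and 0.23). TOB1 was also lost without library b of the higher dose (−0.24).

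**Figure D1:**
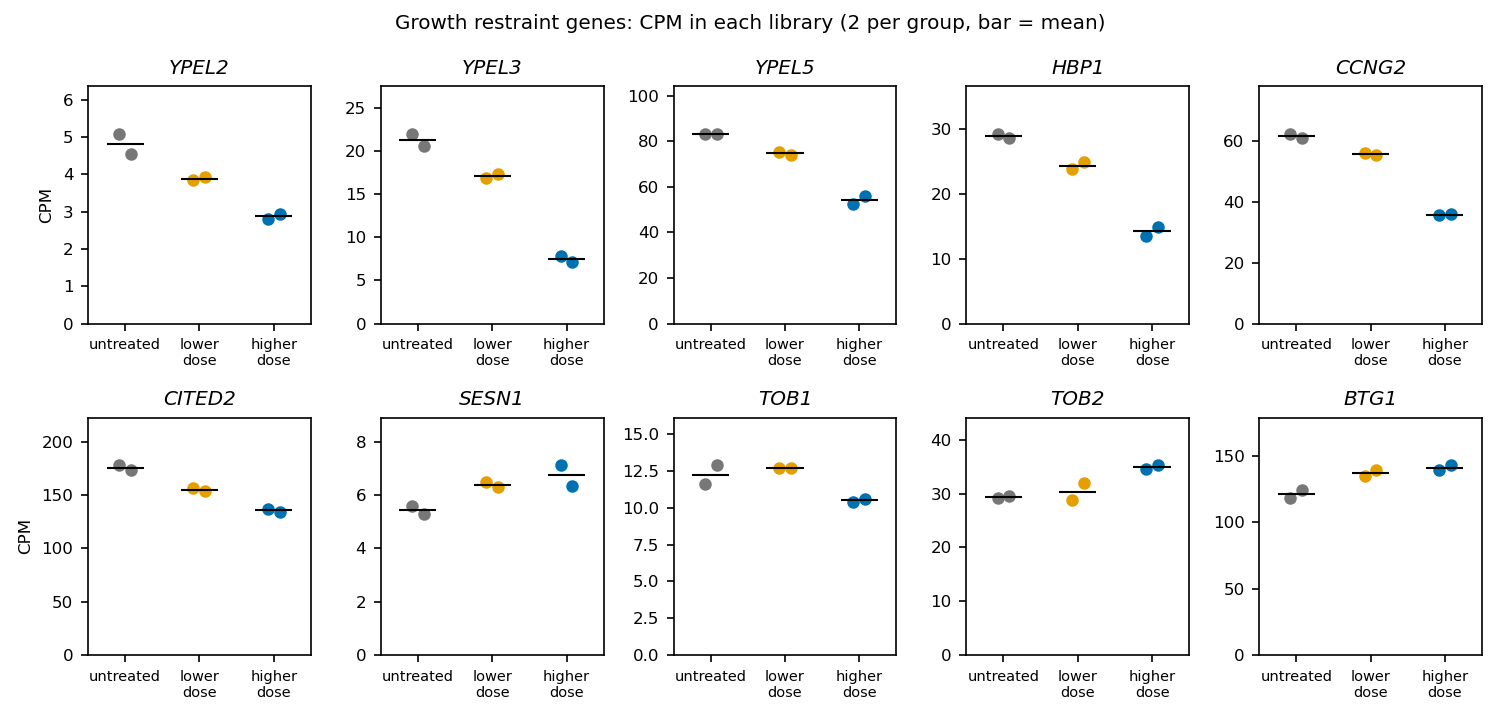
CPM of each growth restraint gene (vertical axes, each starting at 0) in the 2 libraries of untreated cells, of the lower dose and of the higher dose; points are libraries and bars are group means. YPEL3, HBP1, CCNG2, YPEL5, YPEL2 and CITED2 step down with dose, BTG1 is higher at both doses, SESN1 has its treated libraries above the untreated ones (not called at the lower dose), TOB2 is highest and TOB1 lowest at the higher dose.

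The promoters of 3 of the 10 genes held the FOXO-type core GTAAACA or its reverse complement TGTTTAC in a RefSeq window of 250 bases before to 50 bases after a transcription start. These were YPEL3 and HBP1, the genes with the deepest falls, and BTG1, which rose. Of the 9442 tested genes with a window in the RefSeq table, 3.50% held the core in at least 1 window, and of all 35116 windows 3.42% did. The 10 genes had 16 windows between them, 3 of which held a match; the other window of HBP1 and those of YPEL2, YPEL5, CCNG2, CITED2, SESN1, TOB1 and TOB2 did not hold these letters. Of the FOXO factors and textbook targets described further on, 5 of 27 with a window held the core. Among the family relatives, also described further on, 0 of 9 with a window did. A match is a run of letters and not a measured binding site. The 3 windows with a match are printed with the core in capitals, beside that of CCNG2, a FOXO target that fell without a match. They are given 5′ to 3′ on the gene's strand, in RefSeq coordinates of GRCh38.p14, which is a later build than the hg19 used for the counts. The YPEL3 window is chr16:30096164-30096463 on the minus strand, and its core begins at the start of transcription itself. For HBP1 the window is chr7:107168753-107169052 on the plus strand, with the core beginning 173 bases before the start. For BTG1 it is chr12:92145797-92146096 on the minus strand, with the reverse complement beginning 209 bases before the start. The CCNG2 window is chr4:77156957-77157256 on the plus strand.
YPEL3: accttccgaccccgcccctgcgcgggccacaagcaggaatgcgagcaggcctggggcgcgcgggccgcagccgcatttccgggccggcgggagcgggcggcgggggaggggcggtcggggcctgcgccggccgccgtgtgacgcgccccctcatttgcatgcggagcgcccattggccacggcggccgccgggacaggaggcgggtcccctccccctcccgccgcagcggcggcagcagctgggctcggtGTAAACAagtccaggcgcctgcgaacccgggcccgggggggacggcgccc
HBP1: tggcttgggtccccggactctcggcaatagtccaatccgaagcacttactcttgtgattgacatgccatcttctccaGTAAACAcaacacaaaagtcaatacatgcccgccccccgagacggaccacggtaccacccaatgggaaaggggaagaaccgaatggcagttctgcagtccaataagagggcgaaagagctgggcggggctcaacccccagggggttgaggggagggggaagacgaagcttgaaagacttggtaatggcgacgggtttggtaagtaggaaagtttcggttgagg
BTG1: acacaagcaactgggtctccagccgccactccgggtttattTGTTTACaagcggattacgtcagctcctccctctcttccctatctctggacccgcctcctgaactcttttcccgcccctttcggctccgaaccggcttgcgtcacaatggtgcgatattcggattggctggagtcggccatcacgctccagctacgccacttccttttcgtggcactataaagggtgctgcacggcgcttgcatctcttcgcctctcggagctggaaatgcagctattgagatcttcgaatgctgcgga
CCNG2: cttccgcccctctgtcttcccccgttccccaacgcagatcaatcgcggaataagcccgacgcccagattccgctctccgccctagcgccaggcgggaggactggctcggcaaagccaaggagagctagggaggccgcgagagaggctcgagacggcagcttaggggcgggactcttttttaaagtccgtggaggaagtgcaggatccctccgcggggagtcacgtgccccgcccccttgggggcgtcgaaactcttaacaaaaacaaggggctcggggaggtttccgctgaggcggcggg

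The YPEL genes encode small, highly conserved zinc-binding proteins. YPEL3 is known to slow proliferation and promote senescence when it is overproduced. It had 22.0 and 20.5 CPM in untreated cells, 16.9 and 17.3 after the lower dose and 7.77 and 7.09 after the higher dose. The 3 groups did not overlap. Such separation was common among the 13548 genes tested. Both libraries of the higher dose lay above both untreated ones in 5177 genes and below them in 5163. For the lower dose against untreated cells the counts were 4370 and 4356, and between the doses 4353 and 4422. At the higher dose YPEL3 was 65.0% lower than in untreated cells (log2 fold change −1.51 ± 0.08 SE), and only 0.0812% of the genes tested had a lower log2 fold change. The fall at the lower dose was 19.4% (−0.31 ± 0.07), and that between the doses was 56.6% (−1.20 ± 0.09).

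YPEL5, a component of the CTLH (GID) ubiquitin ligase, was the most abundant of the YPEL genes per transcript length. Its level was 83.4 and 83.0 CPM in untreated cells, 75.4 and 74.0 after the lower dose and 52.4 and 56.1 after the higher dose. Again the groups were separate and ordered by dose. The log2 fold change of YPEL5 against untreated cells was −0.16 ± 0.04 at the lower dose and −0.62 ± 0.04 at the higher dose, a fall of 34.8%. YPEL2 was scarce, with 134 and 138 reads in untreated cells, 111 and 114 at the lower dose and 79 and 84 at the higher dose. Its levels were 5.10 and 4.55 CPM in untreated cells, 3.84 and 3.94 after the lower dose and 2.80 and 2.95 after the higher dose. These groups did not overlap either, and the log2 fold change of YPEL2 was −0.30 ± 0.13 at the lower dose, which was not called, and −0.74 ± 0.14 at the higher dose. Between the doses it was −0.44 ± 0.15, a call lost with DESeq2 and without any 1 of the 4 treated libraries (log2 fold changes from −0.47 to −0.40).

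HBP1 is a transcriptional repressor of the HMG-box family that lowers cyclin D1 expression and TCF-driven transcription. It stood at 29.3 and 28.6 CPM in untreated cells, 23.8 and 24.9 after the lower dose and 13.5 and 14.9 after the higher dose. No library of one group reached into another. HBP1 was 15.8% lower at the lower dose (−0.25 ± 0.06) and 50.9% lower at the higher dose (−1.03 ± 0.07) than in untreated cells. The gene is uncertain in one respect: 33.3% of the 50-base stretches of its GENCODE transcript also occur in transcripts of COG5, its neighbour on the opposite strand, and whether strand was used in counting is not given.

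CCNG2 encodes cyclin G2, an unconventional cyclin that is high in resting cells and blocks cell cycle entry. It had 62.4 and 60.8 CPM in untreated cells, 55.9 and 55.2 after the lower dose and 35.5 and 35.9 after the higher dose. The replicates of CCNG2 lay close together, and the groups were apart at each dose. Its log2 fold change was −0.15 ± 0.04 at the lower dose, a call lost with DESeq2, and −0.79 ± 0.05 at the higher dose, a fall of 42.0%. CITED2, a co-regulator that binds EP300 and CREBBP and so competes with HIF1A for them, was the most abundant of the 10. It had 178 and 173 CPM in untreated cells, 156 and 154 after the lower dose and 137 and 134 after the higher dose. CITED2 stepped down by nearly equal amounts, with −0.18 ± 0.03 at the lower dose against untreated cells and −0.20 ± 0.03 between the doses, and −0.38 ± 0.03 over both.

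SESN1 encodes sestrin 1, which binds the GATOR2 complex and thereby restrains mTORC1. It moved the other way: 5.59 and 5.28 CPM in untreated cells, 6.48 and 6.29 after the lower dose and 7.13 and 6.35 after the higher dose. Both treated groups lay above the untreated cells, and they overlapped each other. The log2 fold change of SESN1 was 0.24 ± 0.12 at the lower dose, which was not called, and 0.31 ± 0.11 at the higher dose, on 147 to 201 reads in a library. A lncRNA on the opposite strand, AL390208.1, shares 5.84% of the 50-base stretches of the SESN1 transcript.

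TOB1, TOB2 and BTG1 belong to the TOB/BTG family, whose members bind the CCR4-NOT deadenylase through its CNOT7 and CNOT8 subunits and speed the shortening of poly(A) tails. They did not move together. TOB1 had 11.6 and 12.9 CPM in untreated cells, 12.7 and 12.7 after the lower dose and 10.4 and 10.6 after the higher dose. The lower dose overlapped untreated cells, and the higher dose lay below both. TOB1 had a log2 fold change of 0.04 ± 0.08 at the lower dose and −0.23 ± 0.09 at the higher, a step of −0.27 ± 0.08 from one dose to the next, whose call was lost with DESeq2 and without library a of the higher dose (−0.26).

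TOB2 stood at 29.1 and 29.5 CPM in untreated cells, 28.8 and 31.9 after the lower dose and 34.5 and 35.3 after the higher dose. Here too the lower dose overlapped untreated cells, while the higher dose lay above both. Its log2 fold change was 0.05 ± 0.06 at the lower dose and 0.25 ± 0.05 at the higher dose, a rise of 19.1%, opposite in direction to that of TOB1. The step between the doses was 0.20 ± 0.05 for TOB2, and it was lost with DESeq2 and without library a of the lower dose (0.13). AC007228.1 shares 7.67% of the 50-base stretches of the TOB2 transcript. BTG1 had 118 and 124 CPM in untreated cells, 135 and 139 after the lower dose and 139 and 143 after the higher dose. Its treated groups were above untreated cells and met each other at 139 CPM. At the lower dose the log2 fold change of BTG1 was 0.18 ± 0.03; after the higher it was 0.22 ± 0.03, with a step of 0.04 ± 0.03 between the 2. LINC01619 and AC025164.1, which overlap it, share 13.7% of the 50-base stretches of its transcript. How much of the BTG1 count this affects was not measured.

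The 10 genes differed in which dose step held their change. For YPEL3, HBP1, CCNG2 and YPEL5, the step from untreated cells to the lower dose made up 18.8% to 25.2% of the whole log2 change, and the step from the lower to the higher dose the rest. For YPEL2 the first step made up 41.0% and for CITED2 48.0%. For the rising genes BTG1 and SESN1 the first step held most of the change, 81.4% and 75.1%. The first steps of YPEL2 and SESN1 were not called, so their shares are loosely set. For TOB1 and TOB2 the first step was 0.04 ± 0.08 and 0.05 ± 0.06 (log2 fold change), was not called and ran from −0.03 to 0.12 in each when 1 library was left out, so no share is given for them. The comparisons share the lower dose libraries, so a high or low value there enters both steps with opposite sign.

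**Figure D2:**
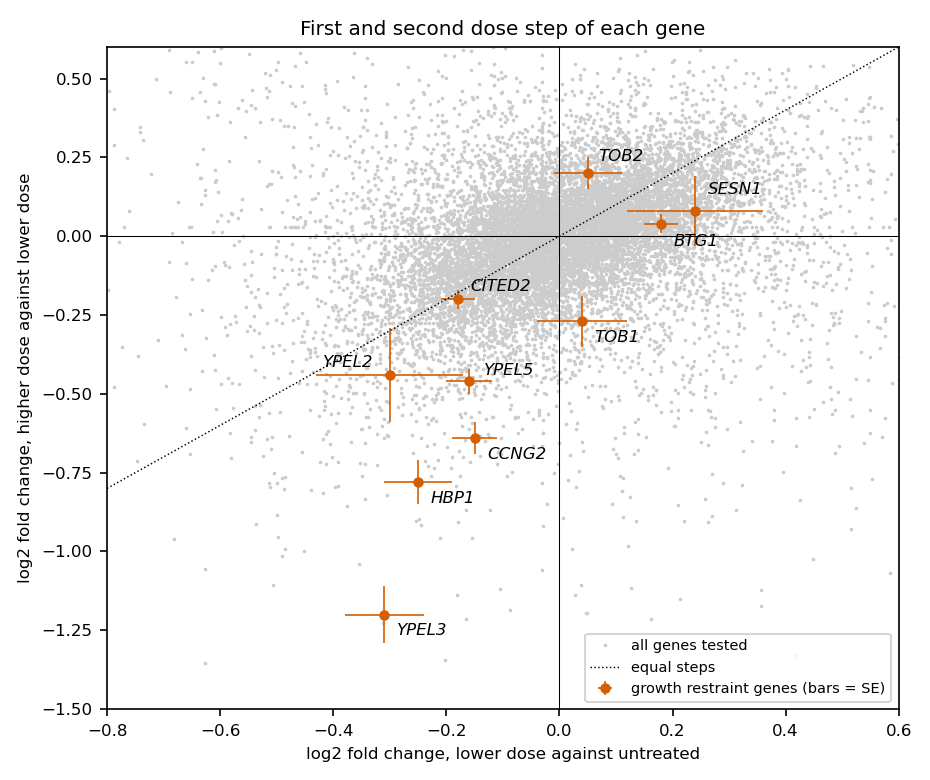
Log2 fold change of the lower dose against untreated cells (horizontal axis) and of the higher dose against the lower dose (vertical axis) for the growth restraint genes, with standard errors, over all genes tested that fall within the axes (grey). YPEL3 at −0.31 and −1.20, HBP1, CCNG2 and YPEL5 lie below the dotted line of equal steps, CITED2 lies on it, and BTG1 and SESN1 lie to the right with second steps of 0.04 and 0.08.

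Levels of different genes were compared per length, as CPM per kilobase of the longest principal GENCODE transcript. In untreated cells CITED2 was highest, at 74.7 ± 1.5 CPM per kilobase (SD, n = 2 in this and the following values), followed by YPEL5 at 32.5 ± 0.098, BTG1 at 25.9 ± 0.87 and YPEL3 at 22.7 ± 1.1. CCNG2 had 11.1 ± 0.21 CPM per kilobase, HBP1 10.2 ± 0.17, TOB2 6.43 ± 0.064 and TOB1 5.50 ± 0.41. SESN1 at 1.55 ± 0.064 and YPEL2 at 0.925 ± 0.074 were lowest, and the median of all genes tested was 7.90. Each neighbour in this order was separated by more than the SDs of both. At the higher dose the order changed: BTG1, at 30.1 ± 0.71 CPM per kilobase, stood above YPEL5 at 21.2 ± 1.0. YPEL3 at 7.95 ± 0.51 and TOB2 at 7.66 ± 0.12 then differed by less than their spread, as did HBP1 at 5.01 ± 0.35 and TOB1 at 4.71 ± 0.066. Which transcripts these cells use was not measured, and another transcript length would shift a gene's place.

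The transcripts themselves were of mixed kinds. Their lengths ran from 935 bases for YPEL3 to 5526 bases for CCNG2, where the tested genes had a median of 3200 bases. GC content was 64.6% in YPEL3, 54.1% in TOB2 and 38.7% to 47.9% in the other 8, against a median of 48.9%. The AU-rich pentamer ATTTA, often found in short-lived mRNAs, occurred in the 3′ untranslated region of 9 of the 10 genes. It was absent from that of YPEL3, and the share of tested genes holding it was not counted. The density was highest in TOB1, with 5.28 per kilobase, against a median of 1.74 per kilobase for tested genes. The longer form TATTTAT was present in YPEL2, CCNG2, TOB2 and BTG1, which include genes of both directions, and in 35% of tested genes. Longer transcripts tended to lower log2 fold changes, with a Spearman rho of −0.24 across 11958 genes at the higher dose, a description over points that share their libraries. Under the 12 alternative settings, an offset for transcript length and GC content among them, each of the 10 genes kept its direction at the higher dose; YPEL3 ran from −1.66 to −1.45 and HBP1 from −1.10 to −0.96.

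The relatives of the 10 genes, listed by family with earlier results of these libraries known, were tested. YPEL1 fell at the higher dose, with 1.14 and 0.702 CPM against 2.02 and 1.85 CPM in untreated cells (log2 fold change −1.07 ± 0.24, edgeR adjusted p = 0.000178). YPEL4 had 5 reads in each library at the higher dose, against 8 and 16 in untreated cells (−1.24 ± 0.54, edgeR adjusted p = 0.0454). That call was lost without untreated library b (−0.77) and under most other settings, with the replicate letter as a block among them (edgeR adjusted p = 0.0531). It held with the size factors of DESeq2 (edgeR adjusted p = 0.0452) and without untreated library a (−1.56). CITED1, which like CITED2 binds EP300 and CREBBP, fell to 3.30 and 3.55 CPM at the higher dose, against 6.16 and 5.51 CPM in untreated cells (−0.76 ± 0.13, edgeR adjusted p = 1.6e-06).

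The sestrins split. SESN2, which in other cells is induced by ATF4 in amino acid stress, rose to 17.2 and 16.9 CPM at the higher dose, against 11.4 and 12.0 CPM in untreated cells (0.54 ± 0.08, edgeR adjusted p = 1.87e-08). SESN3, a described FOXO target, fell to 1.53 and 1.79 CPM, against 2.97 and 3.10 CPM (−0.87 ± 0.19, edgeR adjusted p = 9.99e-05). BTG3, of the TOB/BTG family, rose at both doses, by 0.26 ± 0.05 at the lower (edgeR adjusted p = 6.03e-06) and 0.35 ± 0.05 at the higher dose (edgeR adjusted p = 1.65e-09); with an offset for length and GC content these were 0.17 and 0.22. CCNG1, the p53-induced relative of CCNG2, had 49.1 and 47.7 CPM at the higher dose and 51.5 and 51.0 CPM in untreated cells and did not pass (−0.08 ± 0.04, edgeR adjusted p = 0.106), but passed with that offset (−0.18, edgeR adjusted p = 0.000471). CITED4 did not pass (0.10 ± 0.28, edgeR adjusted p = 0.787). BTG2 had 7 and 8 reads at the higher dose and 3 and 3 in untreated cells, BTG4 had 1 to 3 reads in every library, and neither was tested. Of the 8 relatives tested, 4 fell and 2 rose at the higher dose, where 28.2% of all genes tested fell and 28.1% rose. BTG3 alone of the 8 passed at the lower dose in edgeR's test and the other 7 did not, where 15.9% of all genes tested fell and 16.7% rose. The median log2 fold change of the relatives was −0.42 at the higher dose and −0.04 at the lower dose.

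**Figure D3:**
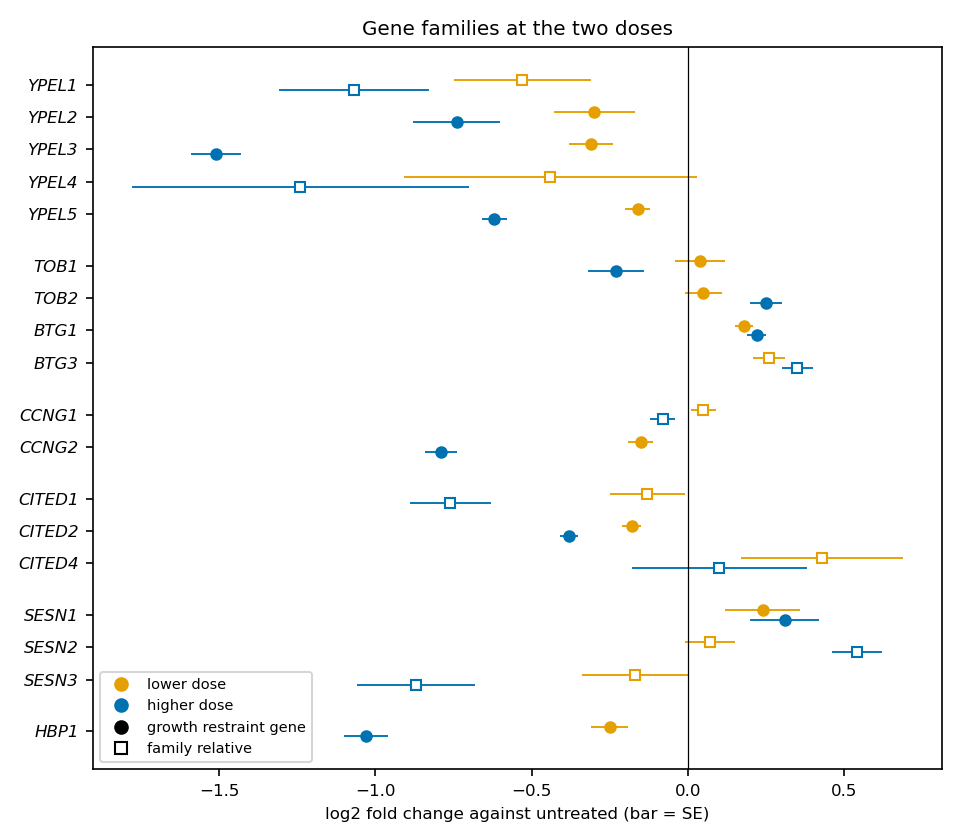
Log2 fold change against untreated cells, with its standard error, for members of each gene family (rows) at the lower and the higher dose; filled circles are the growth restraint genes and open squares their tested relatives. The tested YPEL genes all lie to the left, from −0.62 to −1.51 at the higher dose, while TOB2, BTG1 and BTG3 lie to the right of TOB1, and SESN1 and SESN2 to the right of SESN3.

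Of the FOXO factors themselves, FOXO1 and FOXO4 fell at the higher dose against untreated cells and FOXO3 did not pass. FOXO1 had 3.12 and 2.39 CPM at the higher dose, against 4.83 and 4.48 CPM in untreated cells (log2 fold change −0.75 ± 0.15, edgeR adjusted p = 2.21e-05). FOXO4 had 9.86 and 10.6 CPM, against 16.7 and 16.6 CPM (−0.70 ± 0.08, edgeR adjusted p = 4.51e-11). FOXO3 had 25.4 and 24.8 CPM at the higher dose and 24.5 and 24.0 CPM in untreated cells (0.05 ± 0.06, edgeR adjusted p = 0.517), and passed with an offset for length and GC content (0.16, edgeR adjusted p = 0.0174). At the lower dose FOXO1 fell (−0.53, edgeR adjusted p = 0.00305), a call lost with DESeq2 and without library b of the lower dose (−0.42). FOXO4 (−0.14, edgeR adjusted p = 0.131) and FOXO3 (−0.11, edgeR adjusted p = 0.174) did not pass there. Between the doses FOXO4 fell (−0.56, edgeR adjusted p = 1.18e-07) and FOXO1 did not pass (−0.23). FOXO3 rose (0.16, edgeR adjusted p = 0.0374), a call lost with DESeq2 and without any 1 treated library. FOXO activity is set mainly by phosphorylation and place in the cell, which mRNA does not measure.

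Among 36 FOXO factors and textbook targets outside the 10 genes, 32 were tested, and at the higher dose 20 fell and 6 rose, with a median log2 fold change of −0.33, where 28.2% of all genes tested fell and 28.1% rose. The deepest falls were those of PDK4, TRIM63, KLHL24 and the receptor ERBB3. PDK4, a kinase that inhibits the pyruvate dehydrogenase complex, had a log2 fold change of −1.68 ± 0.29 (edgeR adjusted p = 1.15e-06). TRIM63, a muscle ubiquitin ligase, had −1.54 ± 0.34 (edgeR adjusted p = 0.000134). KLHL24, a ubiquitin ligase adaptor, had −1.45 ± 0.08 (edgeR adjusted p = 1.98e-22), and ERBB3 had −1.25 ± 0.12 (edgeR adjusted p = 4.03e-13). PDK4 and TRIM63 were scarce, with at most 1.79 CPM in any library, and TRIM63 ranged from −2.85 without library a to −0.86 without library b of the higher dose. At the lower dose 13 of the 32 fell and 4 rose, with a median of −0.10, where 15.9% of all genes tested fell and 16.7% rose; 8 fell and 2 rose with DESeq2, and also without untreated library a. This list, like those that follow, was compiled with earlier results of these libraries known and is not independent evidence of its direction.

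TOB and BTG proteins work through the CCR4-NOT complex, and TOB proteins also bind poly(A)-binding protein; of 16 genes of that complex and of poly(A) metabolism, 3 fell and 3 rose at the higher dose and 3 fell and 2 rose at the lower dose, with medians of 0.03 and −0.01. Over all genes tested 28.2% fell and 28.1% rose at the higher dose, and 15.9% and 16.7% at the lower dose, and the counts of the list lie near or below those shares. The genes named here, as in the other lists, were picked as called genes with the largest changes at the higher dose. Their p-values are therefore small by choice and say nothing about the list. PABPC1, the main cytoplasmic poly(A)-binding protein, had 553 and 558 CPM at the higher dose against 753 and 761 CPM in untreated cells (−0.45 ± 0.03, edgeR adjusted p = 3.24e-21). PAN2, a deadenylase subunit, fell (−0.43 ± 0.11, edgeR adjusted p = 0.000626). CNOT9, listed in the files under its older symbol RQCD1, rose (0.42 ± 0.06, edgeR adjusted p = 6.02e-08), and so did CNOT7, the deadenylase subunit that TOB and BTG proteins bind (0.24 ± 0.03, edgeR adjusted p = 2.62e-08).

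Of 28 tested partners and described targets of HBP1, CITED2 and the sestrins, 7 fell and 8 rose at the higher dose, with a median of 0.00, which is near the 28.2% and 28.1% of all genes tested. The genes named from this list were picked in the same way, as called genes with the largest changes at the higher dose. WDR59 and MIOS both belong to the GATOR2 complex that sestrins bind. WDR59 fell (−0.65 ± 0.08, edgeR adjusted p = 1.47e-09) while MIOS rose (0.44 ± 0.07, edgeR adjusted p = 6e-07). TFAP2C, a transcription factor that CITED2 assists, fell (−0.65 ± 0.04, edgeR adjusted p = 1.61e-18), and the phosphatase subunit PPP2R5B rose (0.38 ± 0.06, edgeR adjusted p = 5.5e-07). At the lower dose 4 of the 28 fell and 6 rose, where 15.9% and 16.7% of all genes tested did, a count of 10 that dropped to 4 with DESeq2, to 4 without untreated library a, to 5 without library a and to 6 without library b of the lower dose.

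Other brakes of the cell cycle moved in both directions. Of 21 tested inhibitors of cyclin-dependent kinases, pocket proteins, DREAM complex and MAD family genes, 10 fell and 8 rose at the higher dose, with a median of −0.08, where 28.2% of all genes tested fell and 28.1% rose. The deepest falls were those of CDKN1C, the kinase inhibitor p57 (−1.22 ± 0.11, edgeR adjusted p = 1.1e-14), MXI1 (−0.81 ± 0.07, edgeR adjusted p = 1.15e-14) and MXD4 (−0.78 ± 0.04, edgeR adjusted p = 1.69e-24), both of which oppose MYC, and the pocket protein gene RBL2 (−0.69 ± 0.06, edgeR adjusted p = 4.81e-15), which is also in the FOXO list. The lower dose gave 5 falls and 5 rises, with a median of −0.04, where 15.9% and 16.7% of all genes tested did; with DESeq2 it was 3 and 3.

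**Figure D4:**
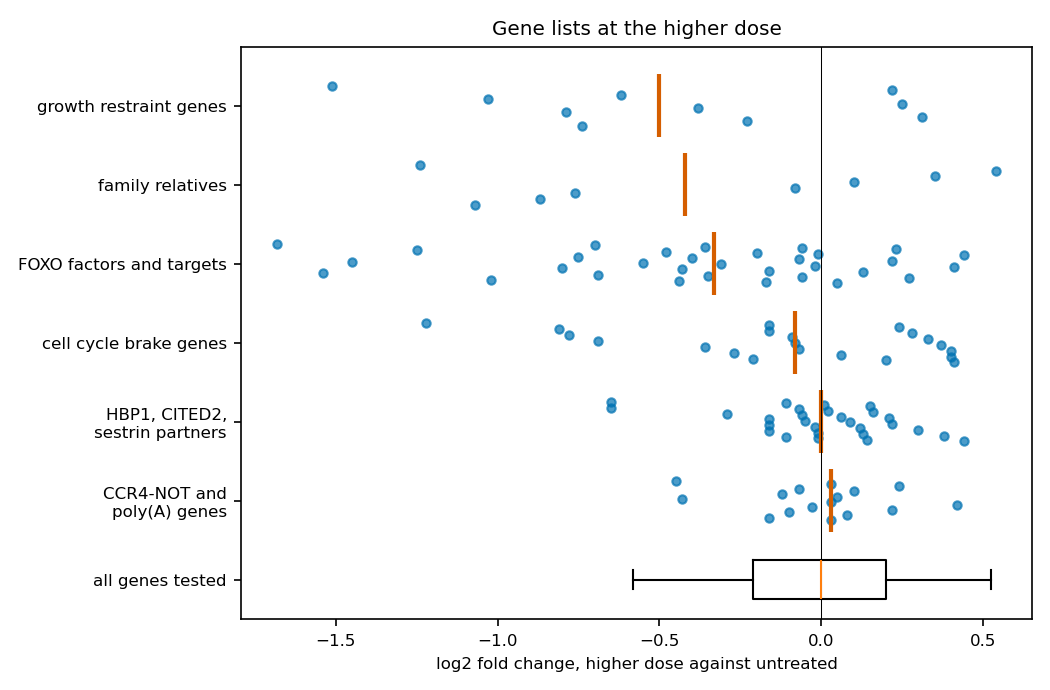
Log2 fold change of the higher dose against untreated cells for the tested genes of each list (points; rows), with the list median (vertical bar) and, at the bottom, all genes tested (box from the lower to the upper quartile, whiskers over the central 90%). The growth restraint genes have a median of −0.50 and the FOXO list −0.33, against 0.00 for all genes tested.

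For each of the 10 genes the nearest patterns among all other genes tested were found as the smallest Euclidean distance between log2 CPM over the 6 libraries, each centred on the gene's mean. Nearest to CCNG2 was MXD4, at a distance of 0.0511 and, at the higher dose, with a log2 fold change of −0.78; then came NANOS1 at 0.0625. YPEL3 had the largest distance to its nearest gene among the 10. That gene, BMF, which encodes a BH3-only promoter of cell death, lay at 0.242 and had −1.48 at the higher dose (log2 fold change). TCP11L2 lay at 0.285. Both neighbours were scarce, at means of 3.57 and 3.91 CPM. Only 0.0812% of the genes tested had a lower log2 fold change than YPEL3 at the higher dose, so few could lie near it. ST3GAL5 (0.0331) and CTH (0.0729) were nearest to YPEL5, and LIPH (0.0844) and NDRG1 (0.0876) to YPEL2. Closest to HBP1 were C5orf41 (0.0783) and CFI (0.104), and to CITED2 PRKAR1A (0.0205) and ALDH7A1 (0.0315). CFI was scarce, at a mean of 0.96 CPM, and its log2 fold change at the higher dose was loosely set (−1.15 ± 0.3 SE). Among the rising genes, BTG1 lay nearest to NDUFB2 (0.0215), TOB2 to SDC1 (0.0537) and SLC30A1 (0.0725), and SESN1 to HOXC6 (0.0709) and ZNF468 (0.0820). TOB1 lay nearest to FBXO27 (0.0596) and DDX26B (0.0657). A small distance is easily reached by genes that change little, as the rising genes did.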

How the data were processed

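For each library the authors deposited raw read counts by gene symbol, without normalization; CPM and log2 values were computed from them. The submitters' processing notes name CASAVA 1.8.1, TopHat 1.4.0, HTSeq and the build hg19; the annotation, counting mode and use of strand are not stated in the sources read. The 5 summary lines of each file (9.40% to 10.2% of its reads) were left out. The test was that of edgeR 4.0.16, run in R 4.3.3 (filterByExpr, TMM, robust quasi-likelihood fit, two-sided F test; all 6 libraries, 3 group means, 3 residual degrees of freedom) with Benjamini-Hochberg adjustment over the 13548 genes tested; the script was tested on simulated counts. An SE is the size of a log2 fold change divided by the square root of its F. The biological coefficient of variation was 1.79%, so small changes pass. Replicates differed by more than counting noise (chi-square per degree of freedom 1.52 to 1.98); p-values measure the spread between these libraries, and floors cover counting error only. Alternatives were DESeq2 1.42.0, its size factors, no filter, 2 groups only, the replicate letter as a block, an offset from a spline on transcript length and GC content (GENCODE 29 matches for 88.3% of tested genes), and each library left out. The genes and the 6 lists were chosen with earlier results of these data known. Named were the 10 genes, all relatives, the FOXO factors, in each list the 4 called genes with the largest change at the higher dose, and the 2 nearest patterns of each of the 10, of which 1 is not reported here.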

Additional observations from a re-analysis of the deposited data

How the results depend on the processing

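With 2 libraries in a group, calls rest on a small spread. DESeq2 called fewer genes: 2543 against 4418 with edgeR at the lower dose and 2759 against 4612 between the doses. At the lower dose it called 10 against 17 FOXO genes, 4 against 10 partner genes and 6 against 10 brake genes. Between the doses it called 5 of the 10 growth restraint genes against 8, 2 relatives against 4, and 3 CCR4-NOT and poly(A) genes against 5. Leaving out 1 library gave 10 to 16 FOXO genes and 4 to 10 partner genes at the lower dose, and 3 to 5 CCR4-NOT and poly(A) genes between the doses (3 without library a of the higher dose). The cause of these differences was not tested. Same-lettered libraries did not deviate together (correlations of −0.08, 0.04 and −0.04 over 12306 genes); with the replicate letter as a block 4320 genes were called at the lower dose against 4418, 7561 at the higher dose against 7626, and 4516 against 4612 for the 2 doses set against each other. YPEL4 was the 1 relative that lost its call at the higher dose under it.

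None of the values that changed sign was called with all libraries except that of PAN2 between the doses (edgeR adjusted p = 0.0454). With the offset for length and GC content, at the lower dose TOB1 had 0.00 and CCNG1 −0.02, and at the higher dose CITED4 had −0.05. Leaving out 1 library, log2 fold changes at the lower dose ran from −0.03 to 0.12 for TOB1, −0.03 to 0.12 for TOB2, −0.80 to 0.03 for YPEL4, −0.48 to 0.08 for SESN3 and −0.44 to 0.09 for PAN2 (called at −0.44, without library b of the lower dose, edgeR adjusted p = 0.0021), and that of CITED4 at the higher dose from −0.17 to 0.33. Between the doses they ran from −0.01 to 0.16 for SESN1, −0.02 to 0.05 for CNOT7, −0.02 to 0.12 for CNOT9 and −0.52 to 0.02 for PAN2.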
